A study of Mus musculus with 26 samples.

Results

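The vascular miRNAs described here in mouse hippocampus were mmu-mir-126a, which is known from endothelial cells, and mmu-mir-143 and mmu-mir-145a, which are known from the smooth muscle cells and pericytes of the vessel wall. They were chosen by name as 3 of the 1054 miRNA entries in the table, and all 3 were among the 463 entries with enough counts to be tested. Small RNA was sequenced from 26 libraries of whole dorsal (dHC) or ventral (vHC) hippocampus. All mice were male C57BL/6J mice of 2 to 3 months of age, and none carried an added allele or received a drug. Control mice stayed in the home cage, and swim mice were placed for 6 min in water of 18 °C and collected 45 mins after the start. Control vHC had 8 libraries, and each of the other groups (control dHC, swim vHC and swim dHC) had 6, spread over 3 labelled blocks. Each group had 2 libraries in each block, except control vHC, which had 4 in block 1. Libraries are named here by group and library number, and the labels do not say which dHC and vHC libraries came from the same mouse. p-values therefore measure the spread between these libraries, whatever its source.

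MiRNAs are short RNAs that are cut from a hairpin and guide repression of mRNAs, which they recognize mainly through the seed, bases 2 to 8 from the 5′ end. MiR-126 is carried within the endothelial gene Egfl7 and is known to favor VEGF signaling and vessel integrity through repression of Spred1. MiR-143 and miR-145 lie side by side, are made from a shared primary transcript, and are known to keep smooth muscle in its contractile state, with Klf4 among the targets of miR-145. In whole tissue, fewer vascular cells and less miRNA per vascular cell cannot be told apart. The table counts small RNAs only, so the cell source of these miRNAs was not tested against protein-coding markers. The methods of the small RNA experiment mention no perfusion of the brain.

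The mature sequence of miR-126a is shown first, as the endothelial member. Of 1679 mature mouse miRNA names in RefSeq (GRCm38.p6), 0 others had its seed, which also holds for miR-126b-5p, miR-872-5p, miR-142a-3p and miR-365-3p among those printed here. Capitals mark the seed, and U is written as in RNA. The namesake miR-126b-5p is shown because it lies on the opposite strand and overlaps miR-126a-3p over 19 bases. The others are 1 arm of each miRNA whose level followed a member most closely across libraries (described further on), shown so that their seeds can be compared, except mir-30d, which is named only. The table counts hairpins and does not separate the arms.
mmu-miR-126a-3p: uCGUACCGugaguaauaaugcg
mmu-miR-126b-5p: aUUAUUACucacgguacgaguu
mmu-miR-872-5p: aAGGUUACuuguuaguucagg
mmu-miR-142a-3p: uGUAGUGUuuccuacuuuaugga
mmu-miR-410-3p: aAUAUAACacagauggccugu
mmu-miR-30a-5p: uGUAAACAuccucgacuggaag
mmu-miR-379-5p: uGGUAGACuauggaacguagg
mmu-miR-365-3p: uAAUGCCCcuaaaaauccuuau
mmu-miR-500-3p: aAUGCACCugggcaaggguuca
No 2 of these 9 seeds are the same. The mature miR-126a-3p lies at chr2:26591402-26591423 on the plus strand (GRCm38.p6). It takes bases 46 to 67 of its hairpin of 73 bases, at chr2:26591357-26591429, in which capitals mark the mature miRNA.
mir-126a hairpin: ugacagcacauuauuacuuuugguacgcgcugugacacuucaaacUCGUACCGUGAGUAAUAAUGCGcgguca

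In GENCODE vM21 on GRCm38, the hairpin of mir-126a lies within Egfl7 (chr2:26580014-26593120, plus strand). It is intronic in 7 protein-coding transcripts of Egfl7 and in 1 transcript marked for nonsense-mediated decay, and it overlaps an exon only of 1 transcript with a retained intron. The longer gene model Gm20532, on the same strand, also spans it, and there it is intronic. The hairpin of mir-126b, on the minus strand, lies inside that of mir-126a. Over all 26 libraries mir-126b had a total of 1 count, in 1 library, so almost no count at this locus was assigned to the opposite strand. The namesake mir-145b had 39 counts in total, spread over 21 libraries, with at most 4.5 in a library. Both namesakes were below the filter and were not tested.

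The 3 members were counted deeply enough that counting error was small beside the differences between libraries. Levels are in normalized CPM, the usual scaling of counts by library total, after TMM normalization. By mean level over the 26 libraries, mmu-mir-143 ranked 22 of 1054 at 13774 normalized CPM, mmu-mir-126a ranked 42 at 8018, and mmu-mir-145a ranked 136 at 856. They made up 1.36%, 0.845% and 0.0883% of all miRNA counts. These are shares of counts. Mature miRNAs are of like length, but ligation and amplification can differ between sequences, so the shares are not ratios of molecules. Counts per library were 5324 to 59802 for mmu-mir-143, 2844 to 61127 for mmu-mir-126a and 227 to 4459.5 for mmu-mir-145a. The counting error of a single library was at most 1.37%, 1.88% and 6.64%, in each case in control dHC library 24. The highest library exceeded the lowest 2.83-fold, 2.88-fold and 2.24-fold. After group and block means were removed, the SD of the log2 level was 0.25 for mmu-mir-126a, 0.31 for mmu-mir-143 and 0.30 for mmu-mir-145a, beside a median of 0.29 over all entries tested. Values for mmu-mir-126a and mmu-mir-143 were whole in every library, whereas 42.3% of those for mmu-mir-145a were not, since the deposited values are estimated counts.

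Total miRNA counts ranged from 465387 to 4819724, with the lowest in control dHC library 24, which also had the lowest normalization factor (0.749). Swim dHC library 6 (total 1649163) stood apart in the members themselves, as described below. Results that changed without these libraries are given both ways. No library pair of a group agreed within counting noise, the closest having a chi-square of 10.4 per degree of freedom.

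**Figure D1:**
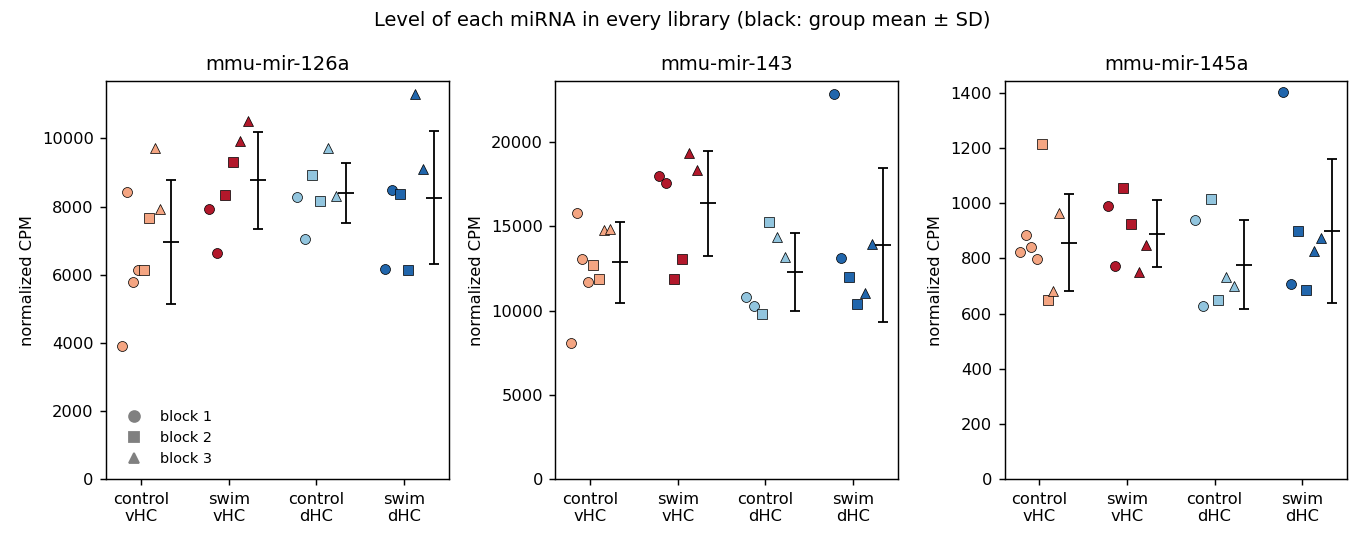
Normalized CPM (y axis, linear, from 0) of mmu-mir-126a, mmu-mir-143 and mmu-mir-145a in each of the 26 libraries, by group (x axis), with block as marker shape and the group mean ± SD in black. All groups overlap for all 3 miRNAs. Swim dHC library 6 stands above its group for mmu-mir-143 (22873) and mmu-mir-145a (1403) and not for mmu-mir-126a (6170).

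The first question was whether the swim changed these miRNAs 45 mins later. In vHC, the endothelial mmu-mir-126a ranged from 3925 to 9723 normalized CPM in control mice (median 6912) and from 6646 to 10522 after swim (median 8832). The means were 6974 ± 1818 (SD, n = 8) and 8780 ± 1422 (SD, n = 6). The groups overlapped over most of their range, although the highest 2 levels were those of the swim libraries of block 3 (9921 and 10522). The fitted fold change was 1.23 (95% confidence interval 0.998 to 1.52), or 0.30 on the log2 scale (SE 0.15), with an unadjusted p of 0.0520 and an adjusted p of 0.629 by edgeR's quasi-likelihood test. The difference did not pass the threshold.

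For mmu-mir-143 in vHC, control libraries ranged from 8080 to 15763 normalized CPM (median 12889) and swim libraries from 11857 to 19344 (median 17770), with means of 12859 ± 2426 (SD, n = 8) and 16362 ± 3103 (SD, n = 6). Here 4 of the 6 swim libraries lay above every control library, and those 4 were all in blocks 1 and 3. In block 1 the swim libraries had 17542 and 17998, and in block 3 they had 18365 and 19344. The swim libraries of block 2, at 11857 and 13065, lay around the controls of the same block (11901 and 12721). The fold change was 1.28 (95% confidence interval 1.01 to 1.62), with a log2 difference of 0.35 (SE 0.17), an unadjusted p of 0.0425 and an adjusted p of 0.617 in the same edgeR test. This too did not pass. Within blocks 1, 2 and 3 the log2 difference was 0.59, 0.02 and 0.35. With each library left out in turn it was 0.19 to 0.45, lowest without swim vHC library 15.

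For the neighbor of mir-143 the vHC groups lay closest together. Levels of mmu-mir-145a in vHC were 651 to 1216 normalized CPM in control mice (median 832) and 751 to 1054 after swim (median 888), so that the swim libraries lay entirely within the control range. The fold change was 1.01 (95% confidence interval 0.826 to 1.23, adjusted p = 0.9996 by edgeR).

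In dHC the swim differences were small for all 3. Levels of mmu-mir-126a were 7041 to 9706 normalized CPM in control mice (median 8290) and 6149 to 11315 after swim (median 8422), and the wider swim range enclosed the control range. The log2 difference was -0.06 (SE 0.16, adjusted p = 0.999 by edgeR). For mmu-mir-143, control libraries had 9819 to 15269 (median 11984) and swim libraries 10377 to 22873 (median 12553). The log2 difference was 0.19 (SE 0.18, adjusted p = 0.982 by edgeR). It rested on swim dHC library 6, since without that library it was -0.0077. For mmu-mir-145a, control libraries had 628 to 1014 (median 718) and swim libraries 686 to 1403 (median 849), with a log2 difference of 0.16 (SE 0.15, adjusted p = 0.982 by edgeR) that was 0.04 without the same library.

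Of the 3 members, 0 passed for stress in vHC, 0 for stress in dHC, 0 for the interaction of region and stress and 0 for stress and interaction together. The background was 0% of the 463 entries in each of these comparisons. Unadjusted p-values under 0.05 were found for 34, 17, 23 and 16 entries, and DESeq2 also called 0 entries in each. For the interaction, the stress effect in dHC minus that in vHC, the log2 values were -0.36 (SE 0.22) for mmu-mir-126a, -0.16 (SE 0.24) for mmu-mir-143 and 0.16 (SE 0.20) for mmu-mir-145a, and the adjusted p was 0.954 for each in edgeR. The 95% confidence intervals of the interaction reached from -0.80 to 0.09, from -0.66 to 0.33 and from -0.26 to 0.57, and differences within these intervals are compatible with the data.

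**Figure D2:**
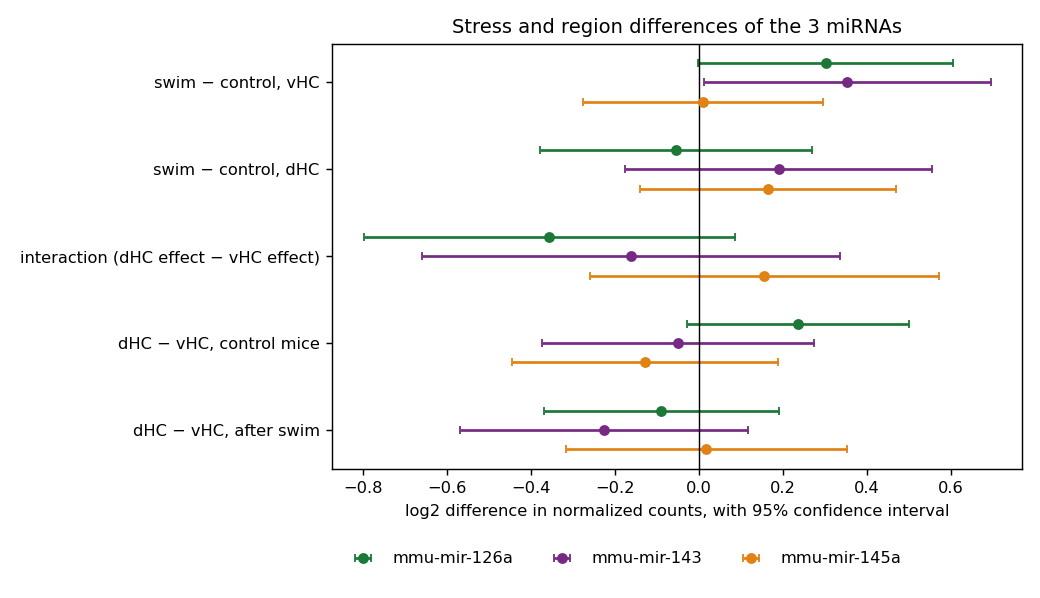
Fitted log2 differences (x axis) of mmu-mir-126a, mmu-mir-143 and mmu-mir-145a with 95% confidence intervals (bars) for 5 comparisons (y axis), from edgeR fits over 26 libraries. The only interval that leaves out 0 is that of mmu-mir-143 for swim in vHC (0.01 to 0.69), and its adjusted p was 0.617.

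The second question was whether dorsal and ventral hippocampus differ in these miRNAs. In control mice, mmu-mir-126a was at 8402 ± 885 normalized CPM in dHC (SD, n = 6) and at 6974 ± 1818 in vHC (SD, n = 8), with the dHC range of 7041 to 9706 inside the vHC range. The log2 difference was 0.24 (SE 0.13, 95% confidence interval -0.03 to 0.50) and the adjusted p was 0.181 by edgeR. Without control vHC library 7, the difference was 0.32 and passed, with an adjusted p of 0.0459. With 2 surrogate variables in place of block it was -0.35, in a fit where the second variable followed region, which explained 91.1% of its variance. After swim the difference was -0.09 (SE 0.14, adjusted p = 0.711 by edgeR), with 8263 ± 1945 in dHC and 8780 ± 1422 in vHC (SD, n = 6 each).

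Neither of the vessel wall miRNAs passed for region. In control mice mmu-mir-143 was at 12284 ± 2293 normalized CPM in dHC and 12859 ± 2426 in vHC, and the log2 difference of -0.05 (SE 0.16, adjusted p = 0.858 by edgeR) turned to 0.0051 with DESeq2 size factors and to 0.01 with TMMwsp. After swim it was at 13895 ± 4586 in dHC and 16362 ± 3103 in vHC, a log2 difference of -0.23 (SE 0.17, adjusted p = 0.392 by edgeR). Swim dHC library 6 decided this value. Without it the log2 difference was -0.43 and passed, with an adjusted p of 0.0357 by edgeR. For mmu-mir-145a the means were 778 ± 160 in dHC and 858 ± 177 in vHC of control mice, and 899 ± 262 and 890 ± 121 after swim. The log2 differences were -0.13 (SE 0.15, adjusted p = 0.550 by edgeR) and 0.02 (SE 0.16, adjusted p = 0.965 by edgeR), and the second was -0.16 without swim dHC library 6.

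Of the 3 members, 0 passed for region in control mice, where 22.5% of the 463 entries passed (36 higher in dHC and 68 lower), and 0 passed after swim, where 20.3% passed (35 higher and 59 lower). At an unadjusted p under 0.05, edgeR found 174 and 150 entries and 0 of the members. Ordered by mean level, mmu-mir-126a ran from swim vHC over control dHC and swim dHC to control vHC, mmu-mir-143 from swim vHC over swim dHC and control vHC to control dHC, and mmu-mir-145a from swim dHC over swim vHC and control vHC to control dHC. No neighbors in these orders differed by more than their SDs.

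The labelled block was the factor for which a member passed, and that member was mmu-mir-126a. Its mean was 6885 ± 1454 normalized CPM in block 1 (n = 10), 7886 ± 1180 in block 2 (n = 8) and 9566 ± 1109 in block 3 (n = 8). In all 4 groups the block 3 mean was the highest, at 9004 in control dHC, 8830 in control vHC, 10206 in swim dHC and 10222 in swim vHC. Relative to block 1, the log2 level was higher by 0.16 (SE 0.11) in block 2 and by 0.44 (SE 0.11) in block 3, and edgeR's adjusted p for block was 0.00532. Block alone explained 40.7% of the variance of its log2 level, compared with 3.92% for region and 7.54% for stress.

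For mmu-mir-143 the block means were 14121 ± 4425, 12127 ± 1675 and 14986 ± 2688 normalized CPM, with an adjusted p of 0.192 by edgeR. For mmu-mir-145a they were 879 ± 212, 887 ± 209 and 798 ± 97.5, with an adjusted p of 0.541 by edgeR. Of the 3 members, 1 passed for block, beside 53.1% of all 463 entries. Without the filter on low counts mmu-mir-143 passed too, with an adjusted p of 0.0343 by edgeR. Block explained 12.4% of the variance of mmu-mir-143 and 4.03% of that of mmu-mir-145a. The block label is a date. Per the methods, libraries were made in 3 batches that each mixed regions and conditions, and RNA was extracted in randomized blocks. Whether the label records either of these is not stated.

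As mir-143 and mir-145a come from neighboring hairpins, their levels were compared library by library. The hairpins lie on the minus strand of chromosome 18 in GENCODE vM21 on GRCm38, at 61649196 to 61649258 (mir-143) and 61647825 to 61647894 (mir-145a). There are 1301 bases between them, and neither lies in another annotated gene. The nearest are Carmn, on the same strand at 367 bases from mir-143, and Bvht, on the opposite strand at 353 bases from mir-145a.

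Over the 26 libraries the log2 levels of mmu-mir-143 and mmu-mir-145a had a Pearson r of 0.23 (permutation p = 0.252, adjusted over 3 relations 0.378) and a Spearman rho of 0.09 (permutation p = 0.656, adjusted 0.923). The relation did not pass. Without the 2 libraries farthest from the median of mmu-mir-143, swim dHC 6 and control vHC 1, r was -0.02 (permutation p = 0.930), and without swim dHC library 6 alone it was also -0.02. Within vHC r was -0.05 (n = 14, permutation p = 0.857) and within dHC it was 0.45 (n = 12, permutation p = 0.145). Within block 1, which holds swim dHC library 6, r was 0.63 (n = 10, permutation p = 0.0489, not adjusted). It was -0.18 in block 2 (n = 8, exact permutation p = 0.669) and 0.0036 in block 3 (n = 8, exact permutation p = 0.993). After group and block means were removed, r was 0.25. By that measure mmu-mir-145a was number 115 among the 462 other tested entries in likeness to mmu-mir-143, and mmu-mir-143 was number 168 in likeness to mmu-mir-145a. Without swim dHC library 6 and control dHC library 24 the same r was 0.02 with the means refitted and 0.09 with the means kept, and the numbers were 193 and 253.

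**Figure D3:**
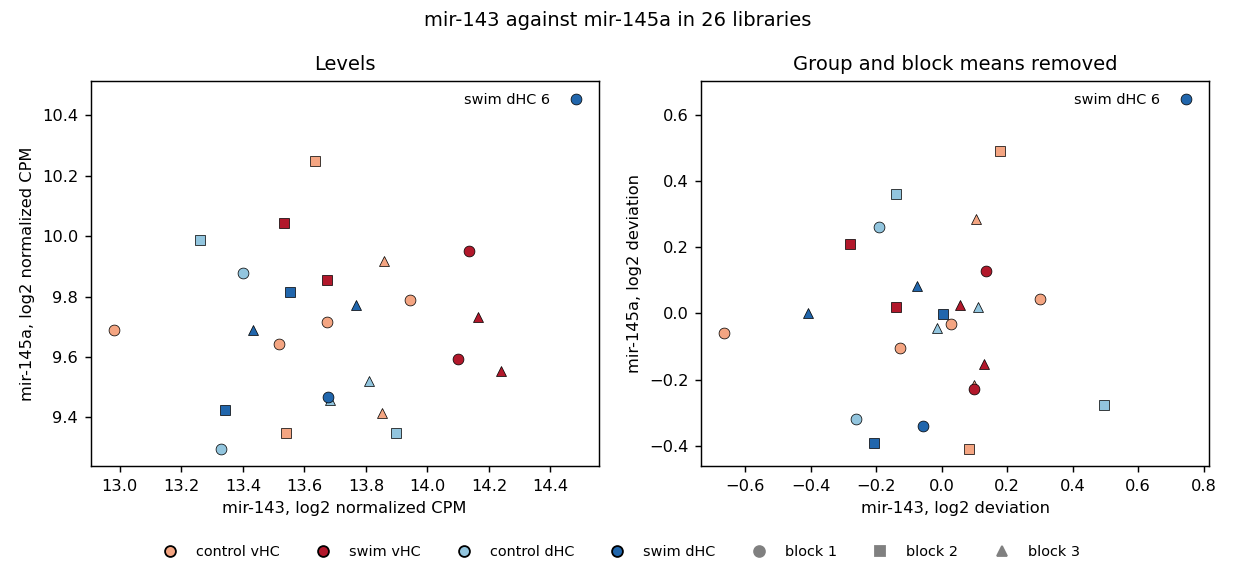
Level of mmu-mir-145a (y axis) against mmu-mir-143 (x axis) in 26 libraries, as log2 normalized CPM (left) and as log2 deviations after group and block means were removed (right), with color for group and shape for block. The points scatter without a clear slope (r = 0.23 and 0.25), and swim dHC library 6 lies alone at the upper right of both panels.

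The remaining pairs were looked at in the same way. For mmu-mir-126a and mmu-mir-143, r was 0.31 over all libraries (permutation p = 0.120, adjusted 0.360) with a rho of 0.28 (permutation p = 0.164, adjusted 0.493). It was 0.73 within vHC (n = 14, permutation p = 0.00420, not adjusted) and -0.25 within dHC (n = 12, permutation p = 0.419). Group and block means were kept in these values, and the difference between the regions was not tested. Without the 2 libraries farthest from the median of mmu-mir-126a, control vHC 1 and 9, the pooled r was 0.05. Without swim dHC library 6 and control dHC library 24 it was 0.48 (permutation p = 0.0182, not adjusted) with a rho of 0.40 (permutation p = 0.0521). After group and block means were removed, r went from 0.21 to 0.47 with the means refitted, or to 0.41 with the means of all libraries. The rise was not seen in ranks, where the rho of these deviations went from -0.02 to 0.06 with the means of all libraries. The pooled value thus rested on few libraries in either direction. Control vHC library 1 had the lowest level of both miRNAs (3925 and 8080). Within blocks r was 0.40, 0.12 and -0.00060. For mmu-mir-126a and mmu-mir-145a, r was -0.13 (permutation p = 0.526) and rho was -0.02 (permutation p = 0.923), without the farthest libraries r was -0.19, within vHC and dHC it was -0.10 and -0.12, and within blocks it was -0.04, 0.06 and -0.17.

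Ratios within a library do not depend on normalization. Over all libraries there were 16.5 ± 4.32 counts of mmu-mir-143 per count of mmu-mir-145a (SD, n = 26), with a lowest ratio of 9.69 in control dHC library 18, a median of 16.1 and a highest ratio of 25.8 in swim vHC library 27. Ranges were 9.69 to 23.5 in control dHC, 9.81 to 21.7 in control vHC, 13.3 to 18.5 in swim dHC and 11.2 to 25.8 in swim vHC. The ratio thus varied more than either counting error, and all groups overlapped. Swim dHC library 6, where both members were high, lay within its group at a ratio of 16.3. In none of the 4 comparisons did the log2 ratio of mmu-mir-145a to mmu-mir-143 pass, with exact permutation p-values adjusted over 8 tests of at least 0.618.

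The ratio of mmu-mir-126a to the sum of mmu-mir-143 and mmu-mir-145a, an endothelial count per mural count, was 0.655 ± 0.105 in control dHC (SD, n = 6, range 0.512 to 0.824) and 0.505 ± 0.0781 in control vHC (SD, n = 8, range 0.417 to 0.629). The ranges overlapped, and 4 of 6 dHC libraries lay above all 8 vHC libraries. The log2 difference was 0.37 (SE 0.12), with a two-sided exact permutation p of 0.00866 that was 0.0693 after adjustment over 8 tests and did not pass. Within blocks 1, 2 and 3 it was 0.54, 0.32 and 0.14. When labels were exchanged only within block, the exact permutation p was 0.0185 (adjusted 0.148). Without control dHC library 24 the difference was 0.44, and without control vHC library 25 it was 0.42, and in both cases the exact permutation p adjusted to 0.0373. After swim the ratio was 0.606 ± 0.222 in dHC (range 0.254 to 0.951) and 0.522 ± 0.122 in vHC (range 0.363 to 0.666), with a log2 difference of 0.15 (SE 0.29, exact permutation p = 0.619, adjusted 0.842). The lowest ratio of all was that of swim dHC library 6.

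**Figure D4:**
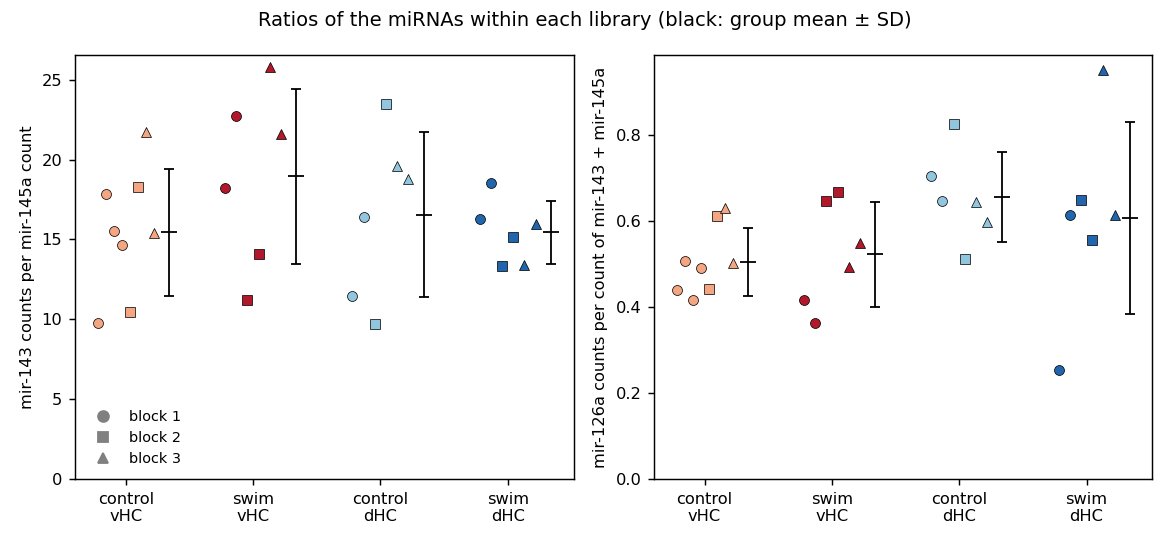
Ratios of counts within each of the 26 libraries (y axes, linear, from 0) by group (x axis), for mmu-mir-143 per mmu-mir-145a (left) and mmu-mir-126a per mmu-mir-143 plus mmu-mir-145a (right), with block as marker shape and the group mean ± SD in black. On the right, control dHC (0.512 to 0.824) sits higher than control vHC (0.417 to 0.629) with an overlap, and swim dHC spreads from 0.254 to 0.951.

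Other miRNAs studied in vessels were followed as a list of 17 companions, of which 15 were tested. For stress, 0 of 15 passed in either region, with median log2 differences of 0.12 in vHC and -0.03 in dHC, beside -0.03 and 0.02 over all entries. For region in control mice, 3 of 15 were higher in dHC and 0 lower, with a median of 0.11 beside 0.0055 over all entries. This is a share close to the 22.5% of all entries that passed. These were mir-21a, an miRNA of many growing and reactive cells (log2 difference 0.65, adjusted p = 5.27e-04 by edgeR), and both copies of the muscle miRNA mir-1a (0.55 each, adjusted p = 4.32e-04). The copies mir-1a-1 and mir-1a-2 share reads and are not separate evidence. After swim the same 3 entries were higher in dHC (0.41 for mir-21a, adjusted p = 0.0433, and 0.61 for mir-1a, adjusted p = 4.40e-04), and the list median was -0.08. Block differed for 10 of 15, beside 53.1% of all entries.

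The 12 companions that did not pass for region in control mice went both ways, with log2 differences from -0.24 for mir-221, -0.21 for mir-199a-1 and -0.07 for mir-130a to 0.11 for mir-214, 0.35 for both copies of mir-133a and 0.41 for mir-10b. In summed level the companions ranged from 23285 to 35064 normalized CPM over all libraries, and the ranges of the 4 groups overlapped.

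Marker miRNAs of other cells were read beside the members. Of 4 erythroid entries, mir-486a and mir-486b, which share reads, were lower in dHC of control mice (log2 difference -0.92 each, adjusted p = 2.06e-05 for mir-486a by edgeR), and 1 entry was lower after swim. The remaining erythroid entries did not pass in control mice and had log2 differences of 0.40 (mir-144) and 0.15 (mir-451a). The erythroid sum ranged from 646 to 951 normalized CPM in control dHC and from 781 to 997 in control vHC, 659 to 884 in swim dHC and 748 to 903 in swim vHC. Erythroid miRNAs were thus counted in every library. Of 10 entries of choroid plexus and ciliated cells, 5 were higher and 5 lower in dHC of control mice, and 2 and 5 after swim. The lower ones were mir-200a, mir-200b, mir-200c, mir-429 and mir-141 in both comparisons. Those higher in control mice were mir-204, mir-211, mir-449a, mir-34b and mir-34c. All 3 oligodendrocyte entries were higher in dHC in both. Over all 463 entries, the share that passed for region was 22.5% in control mice and 20.3% after swim. Of 5 microglia and leukocyte entries and of 3 neuron entries, 0 passed for region. In each list 0 of the entries tested passed for stress, and 0 entries were at 0 in all libraries. The part of these cells in the members' values was not tested.

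To see what else varied as the members did, the log2 level of each of the other 462 tested entries was compared with that of each member over the 26 libraries, after group and block means were removed. These r values are descriptions, since entries share libraries, depth and normalization. For mmu-mir-126a the most alike were mir-872 (r = 0.89), mir-142a (r = 0.88), an miRNA of blood-derived cells, and mir-410 (r = 0.83), from the imprinted cluster of chromosome 12. Without removal of the means their r was 0.76, 0.30 and 0.04, so for mir-142a and mir-410 the likeness lay within groups and blocks. For mmu-mir-143 they were the widely expressed mir-30a (r = 0.84) and mir-30d (r = 0.81), which belong to the same family, and mir-379 (r = 0.81), from the same imprinted cluster as mir-410. With the means kept, r was 0.66, 0.57 and 0.63. For mmu-mir-145a they were both copies of mir-365 (r = 0.90 each) and mir-500 (r = 0.79). The copies mir-365-1 and mir-365-2 carry the same mature 3p sequence printed above, at chr16:13453895-13453916 and chr11:79726467-79726488 (plus strand), and cannot be told apart by it. Without swim dHC library 6 and control dHC library 24, r was 0.89, 0.89 and 0.86 for the 3 entries most like mmu-mir-126a, 0.77, 0.72 and 0.71 for mir-30a, mir-30d and mir-379 with mmu-mir-143, and 0.84, 0.84 and 0.66 for the copies of mir-365 and mir-500 with mmu-mir-145a. Then mir-379 was number 8 and mir-500 number 24.

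No entry was among the 10 closest of more than 1 member, and no member was among the 10 closest of another. Among the vascular companions, the closest to mmu-mir-126a was mir-199a-1 (r = 0.63, number 36 of 462), the closest to mmu-mir-143 was mir-21a (r = 0.78, number 8) and the closest to mmu-mir-145a was mir-140 (r = 0.63, number 25). Without the same 2 libraries these were 0.61 (number 62), 0.68 (number 12) and 0.40 (number 112). The erythroid entries spread widely around mmu-mir-126a, from mir-144 (r = 0.75, number 18) over mir-451a (r = 0.34) to mir-486a (r = -0.71, number 461), although all are known from red blood cells. With the summed lists, the deviations of mmu-mir-143 had r = 0.60 for the vascular companions, -0.73 for microglia and leukocytes and -0.61 for choroid plexus and ciliated cells. Without the 2 libraries these were 0.25, -0.56 and -0.40. Such sums are led by the most abundant entries, and over all libraries the single entries went both ways with mmu-mir-143. Vascular companions ran from -0.26 (mir-133a-1) to 0.78 (mir-21a). Microglia and leukocyte entries ran from -0.81 (mir-150) to 0.52 (mir-146a), and choroid plexus and ciliated cell entries from -0.70 (mir-211) to 0.36 (mir-200b). The deviations of mmu-mir-145a had r = 0.65 for the neuron list, or 0.60 without the 2 libraries. With the vascular companions they had r = -0.22, or -0.54 without the 2 libraries. Over all libraries the single companions went both ways with mmu-mir-145a, from -0.61 (mir-222) to 0.63 (mir-140). With microglia and leukocytes r was 0.08, or 0.44 without the 2 libraries. For the deviations of mmu-mir-126a, r stayed between -0.25 and 0.23 for all 6 lists.

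Base composition moved with some of this likeness. Mature sequences were found among the RefSeq names searched for 375 of the 462 other entries for mmu-mir-126a and for 376 for the others (81.2% and 81.4%). Across entries, the share of G and C had r = -0.37 with likeness to mmu-mir-126a, -0.14 with likeness to mmu-mir-143 and 0.10 with likeness to mmu-mir-145a. Without swim dHC library 6 and control dHC library 24 it was -0.33, -0.34 and -0.01. The 46 entries most like mmu-mir-126a had a median of 42.0% G and C, beside 48.9% over all. Its 46 least alike had sequences for 78.3% of entries, too few for that comparison. For mmu-mir-143 the medians were 44.0% in the most alike and 50.5% in the least alike, and for mmu-mir-145a 51.3% and 48.9%. The mature miR-126a-3p printed above has 45.5% G and C. Whether composition has a part in the likeness was not tested, and entries are not independent replicates.

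**Figure D5:**
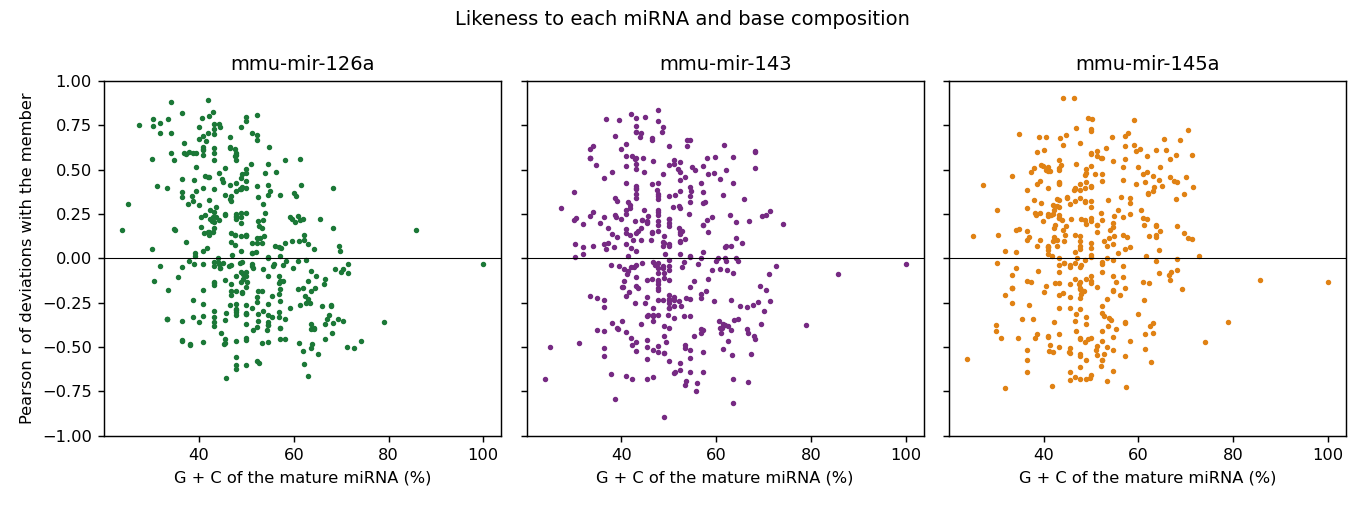
Likeness of each other tested entry to mmu-mir-126a, mmu-mir-143 and mmu-mir-145a (y axis, Pearson r of log2 deviations over 26 libraries) against the mean G and C content of its mature arms (x axis, percent), with 1 point per entry. The cloud for mmu-mir-126a slopes down (r = -0.37), and those for the others are flatter (-0.14 and 0.10), although without swim dHC library 6 and control dHC library 24 the value for mmu-mir-143 was -0.34.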

How the data were processed

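Small RNA libraries of hippocampus were made by the authors from total RNA (Trizol) with the Nextflex kit. Per the methods and processing notes, adapters were trimmed with cutadapt, molecular duplicates were collapsed by their tags, and RNAs were quantified with Sports 1.0. The values the authors deposited are estimated counts per annotated small RNA, not normalized, per hairpin for miRNAs. They were rounded to whole numbers. A total of 0 columns could not be matched to a sample. Totals of miRNA counts per library were between 465387 and 4819724, and counting errors cover counting only.

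Entries were filtered with filterByExpr (minimum count 10, minimum total 15), normalized by TMM and tested in R 4.3.3 with edgeR 4.0.16 (quasi-likelihood, Benjamini-Hochberg over 463 entries, threshold 0.05), over all 26 libraries. The model for stress had terms for region and stress with an interaction, plus 2 surrogate variables (sva 3.50.0), as in the study's methods. Because the second of these followed region, region tests held the labelled block instead. The first followed block, which explained 72.7% of its variance, so block tests held the labelled block and no surrogate variables. Correlations used log2 normalized CPM (prior count 2) and 100000 permutations (exact for 8 libraries), and ratios used two-sided exact permutation tests. Alternatives changed normalization, tool (DESeq2 1.42.0), filter, covariates and libraries. Leaving out control dHC library 24 and swim dHC library 6 together, also for the likeness of entries, was added after seeing the data. The edgeR test was tried on simulated data for stress in vHC, for region in control mice and with no difference. The correlation test was tried on a related and an unrelated simulated pair. The remaining procedures were not tried on simulated data. Positions are those of GENCODE vM21 and sequences those of RefSeq, both on GRCm38, the build in the processing notes.

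The members and the lists of marker miRNAs were chosen with earlier results of these data known. Named besides the members are their namesakes, vascular companions past the threshold (at most 4 per comparison) and the 3 entries most like each member. Companions that did not pass, and single entries of the marker lists, were named after their values were seen. The neuron list matched 3 of 6 names, because the table names the mir-124 entries differently.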

Additional observations from a re-analysis of the deposited data

Results flagged for a closer look

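Of 20 sets of group values examined for a library far from the others, 2 had one, and chance gives about 1 in 20. Both were in swim dHC library 6. Its mmu-mir-143 level was 22873 normalized CPM, while the other 5 libraries of the group had 10377 to 13943. The gap to the nearest was 0.715 of the group's range, above the critical value of 0.625 for 6 libraries. Its mmu-mir-145a level was 1403 normalized CPM, while the others had 686 to 900, and the gap was 0.702 of the range. Its mmu-mir-126a level, 6170, lay within the range of the others, and its mmu-mir-143 to mmu-mir-145a ratio of 16.3 lay near the median of all libraries (16.1). Over the whole miRNA profile, chi-square values per degree of freedom were 236 to 509 between this library and the others of its group, and 29.4 to 262 among those others.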

How the results depend on the processing

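Of the values recomputed under alternatives other than leaving out 1 library, 322 kept their direction and their side of the threshold or moved by less than their spread or interval. Another 15 tested values changed sign, 14 values moved by more, some of them across 0, and 5 passed a threshold they had missed. The cause was not tested. No stress result of a member passed under any alternative run. The log2 difference of mmu-mir-143 between dHC and vHC in control mice was 0.0051 with DESeq2 size factors, 0.012 with TMMwsp, 0.0053 with DESeq2 and 0.12 with 2 surrogate variables. With these variables mmu-mir-126a had -0.35 in control mice, mmu-mir-145a had -0.92 after swim, and 59 entries were called for region after swim. Without block or surrogate variables, 67 entries were called for region in control mice and 56 after swim. Without the filter, mmu-mir-145a had -0.014 for region after swim, and mmu-mir-143 passed for block, at -0.22 in block 2 and 0.10 in block 3 against block 1.

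With control dHC library 24 and swim dHC library 6 left out together, which was chosen after seeing the data, mmu-mir-143 passed for region after swim (-0.40, adjusted p = 0.0276 by edgeR), and the ratio of mmu-mir-126a to the mural pair passed for region in control mice (0.44, exact permutation, adjusted p = 0.0373). The tested values that changed sign were 0.031 for mmu-mir-126a under stress in dHC, -0.039 for the interaction of mmu-mir-145a, -0.15 for its region difference after swim, and -0.052 (stress in dHC) and 0.035 (region in control mice) for the log2 ratio of mmu-mir-145a to mmu-mir-143. Of the correlations without a test, 5 moved beyond their 95% interval, some of them across 0. That of mmu-mir-143 went from 0.60 to 0.25 with the vascular companion list and from 0.43 to -0.30 with the oligodendrocyte list. That of mmu-mir-145a with the oligodendrocyte list went from 0.12 to -0.33. Those of base composition went from -0.14 to -0.34 for likeness to mmu-mir-143 and from 0.10 to -0.013 for likeness to mmu-mir-145a.

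Within blocks, mmu-mir-143 had 0.017 for stress in vHC in block 2, 0.72, -0.13 and -0.15 for stress in dHC in blocks 1, 2 and 3, and -0.60 for region after swim in block 3, and mmu-mir-145a had -0.33 for region after swim in block 2. The r of mmu-mir-143 with mmu-mir-145a was -0.019 without the farthest 2 libraries, -0.053 within vHC, 0.63 in block 1 and -0.18 in block 2.

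Leaving out each library in turn gave these ranges of log2 differences. For mmu-mir-126a they were -0.15 to 0.015 for stress in dHC and 0.18 to 0.32 for region in control mice. For mmu-mir-143 they were 0.19 to 0.45 for stress in vHC and -0.0077 to 0.23 for stress in dHC. Its ranges for region were -0.15 to 0.025 in control mice and -0.43 to -0.14 after swim. For mmu-mir-145a they were -0.067 to 0.13 for stress in vHC, -0.0016 to 0.24 for the interaction, -0.16 to 0.069 for region after swim and -0.044 to 0.14 for block 2 against block 1. For the log2 ratio of mmu-mir-145a to mmu-mir-143 they were -0.069 to 0.19 for stress in dHC and -0.22 to 0.035 for region in control mice. For the ratio of mmu-mir-126a to the mural pair they were -0.048 to 0.13 for stress in vHC, -0.35 to 0.036 for stress in dHC, -0.00021 to 0.38 for region after swim and 0.30 to 0.44 for region in control mice. The r of mmu-mir-143 with mmu-mir-145a ranged from -0.017 to 0.30. No paired analysis was run, because the labels give every library its own number and do not name the mouse. Each dHC library shares condition and block with the vHC library of the preceding number. Whether such pairs came from the same mouse is not stated, and the region tests treated all libraries as independent.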
